A study of Mus with 4 samples.

Results

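The genes described here encode immune checkpoint and co-stimulatory ligands, proteins that a cell shows to lymphocytes and macrophages and that raise or lower their activity. They were chosen by gene symbol as a named set: Cd274, Pdcd1lg2, Cd80, Cd86, Cd276, Vtcn1, Icosl, Vsir, Lgals9 and Cd47. All 10 were on the array, among 18193 genes with a single symbol in the platform annotation, and 20 of the 45037 probe sets tested carried one of these symbols. Expression was measured in PPS-ICBR cells, labelled as prostate cancer cells of the C57Bl6 strain of mouse, grown in DMEM with fetal bovine serum. Cells at 60% confluency were kept overnight either with 5 µM vorinostat dissolved in DMSO or with DMSO only (5 µL in 10 mL of medium), and 2 arrays were hybridised per group. Vorinostat inhibits histone deacetylases, enzymes that remove acetyl groups from histones and other proteins. The labels do not state whether replicate arrays are independent cultures, so each p-value below covers only the variation among these 4 arrays, possibly technical. All arrays come from 1 cell line in culture, so the data describe transcripts of the ligands and no contact with a receptor.

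Most of these proteins belong to the B7 family of immunoglobulin-like surface molecules. T cells need a second signal beside their antigen receptor, and CD80 and CD86 give it through CD28, or withhold it through CTLA-4, while ICOS ligand acts through ICOS. PD-L1 (from Cd274) and PD-L2 (from Pdcd1lg2) bind PD-1 and dampen activated T cells, and B7-H3 (Cd276), B7-H4 (Vtcn1) and VISTA (Vsir) are further B7-like regulators that mostly restrain T cells. Galectin-9 (Lgals9) is a sugar-binding protein and a ligand of TIM-3, and CD47 signals to SIRP-alpha on macrophages so that they do not engulf the cell. Tumour cells of epithelial origin commonly carry CD47, B7-H3 and inducible PD-L1, whereas CD80 and CD86 are typical of dendritic cells, macrophages and B cells.

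Each value is the deposited log2 expression of 1 probe set, a group of short probes for a transcript, on 1 array. A change is the mean of the 2 vorinostat arrays minus the mean of the 2 DMSO arrays, with its standard error (SE) and its adjusted p from limma. This tool fits a linear model per probe set and pools information on variances, and its p-values were adjusted by the Benjamini-Hochberg procedure over all 45037 probe sets. A probe set rose or fell where the adjusted p was under 0.05. The margin for signal near background was set on each array at 1 log2 unit above the brightest of 3 TrpnX control probe sets, and a probe set counted as near background in a group when both of its arrays were under that margin. It lay between 3.54 and 3.78 on the 4 arrays. Of the 20 ligand probe sets, 9 lay above it on all 4 arrays, 9 were near background in both groups, and the other two crossed it. Where a gene had several probe sets, the one with the highest mean over the 4 arrays stands for it. Probe sets bind their targets unequally, so the levels of different genes are not ranked.

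Of the 10 ligand genes, 4 rose with vorinostat (Cd47, Vsir, Lgals9 and Cd276), 0 fell and 6 did not pass. At the level of probe sets 7 of 20 rose and 0 fell. At an unadjusted limma p under 0.05 the numbers were again 7 and 0. Of all 45037 probe sets, 18655 had an unadjusted p under 0.05, in either direction. Over all genes tested 20.9% rose and 18.9% fell, and over all probe sets 16.5% rose and 15.7% fell. The median change was 0.26 for the ligand genes, against 0.03 over all genes. By the brightest probe set, Cd47 rose by at least 2-fold and the other 3 by less. With the probe sets of a gene averaged, Vsir was over 2-fold (1.06) and Cd47 under it (0.65). The arrays of the 2 groups did not overlap in 6 ligand genes, 5 of them higher and 1 lower, where 37.3% of all genes lay higher and 31.6% lower without overlap. Among ligand probe sets 11 lay higher and 1 lower without overlap, against 33.1% and 29.7% of all probe sets. With any 1 array left out, which leaves a single array in 1 group, fewer ligand genes and fewer of all genes passed. In these 4 fits the change lay between 0.97 and 1.09 for Cd47 and between 0.51 and 0.58 for Lgals9. It lay between 0.39 and 0.84 for Vsir and between 0.27 and 0.33 for Cd276.

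**Figure D1:**
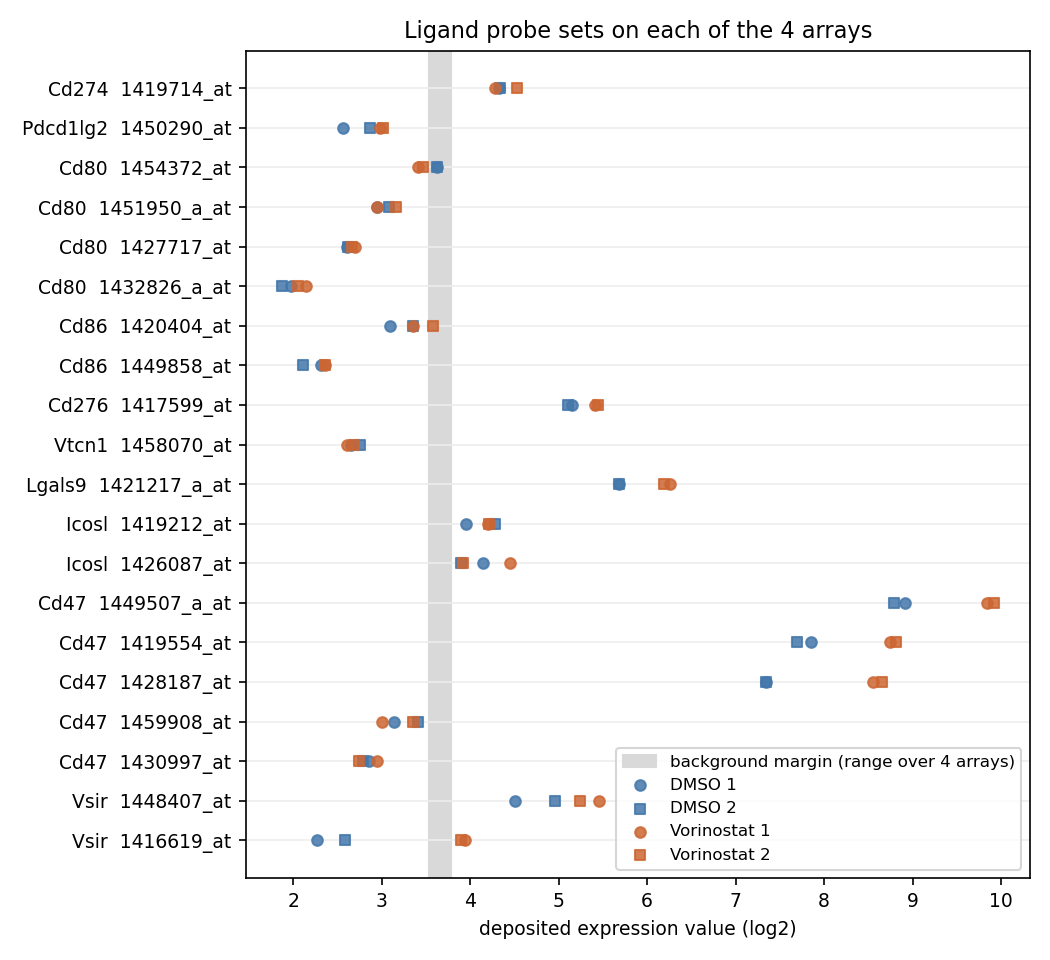
Deposited log2 values (horizontal axis) of the 20 ligand probe sets on the DMSO arrays (blue) and the vorinostat arrays (orange), with circles for replicate 1 and squares for replicate 2. The grey band is the background margin, from 3.54 to 3.78. At 3 bright Cd47 probe sets, Lgals9, Cd276 and both Vsir probe sets the vorinostat arrays lie to the right of the DMSO arrays. The same holds at 4 probe sets near background, of Pdcd1lg2, Cd80 and Cd86, which did not pass.

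Cd47, the signal that keeps macrophages from engulfing a cell, showed the largest change of the 10 genes by the brightest probe set, though not with probe sets averaged, where Vsir was higher. Its brightest probe set, 1449507_a_at, read 8.91 and 8.79 on the DMSO arrays and 9.84 and 9.92 on the vorinostat arrays. The groups did not overlap, and their distance was far larger than the spread within either. The mean went from 8.85 ± 0.08 to 9.88 ± 0.06 (SD, n = 2), a rise of 1.03 on the log2 scale (SE 0.09, adjusted p = 0.000873 by limma) or 2.04-fold. Of all 18193 genes, 5.41% had a larger change in the upward direction.

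Another 2 Cd47 probe sets gave the same picture. Probe set 1419554_at read 7.85 and 7.69 in DMSO and 8.75 and 8.81 with vorinostat, a rise of 1.01 (SE 0.09, adjusted p = 0.00106). Probe set 1428187_at read 7.34 on both DMSO arrays and 8.55 and 8.65 with vorinostat, a rise of 1.26 (SE 0.08, adjusted p = 0.000431). Their 95% intervals, 0.80 to 1.25 for the brightest and 0.78 to 1.25 and 1.05 to 1.47 for the other two, overlapped. These 3 read the same gene in the same RNA, so they are repeated readings and not further replicates. The remaining Cd47 probe sets, 1459908_at and 1430997_at, were near background on all 4 arrays. Probe set 1459908_at had 3.14 and 3.41 in DMSO against 3.01 and 3.36 with vorinostat, a change of -0.09 (SE 0.15, adjusted p = 0.717), and its arrays overlapped. Probe set 1430997_at had 2.86 and 2.79 against 2.95 and 2.74, a change of 0.02 (SE 0.10, adjusted p = 0.894), again with overlap. The sequences behind 1449507_a_at and 1419554_at are listed as a RefSeq transcript of Cd47, while those of the other 3 are not. Averaged over all 5 probe sets, Cd47 still rose, by 0.65 (adjusted p = 0.000917 by limma).

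Vsir encodes VISTA, a B7-like regulator best known from myeloid cells. Its brighter probe set, 1448407_at, read 4.51 and 4.95 in DMSO and 5.46 and 5.24 with vorinostat. The groups did not overlap, but the DMSO arrays lay further apart than the nearest DMSO and vorinostat arrays. The rise was 0.62 (SE 0.17, adjusted p = 0.0455) or 1.53-fold, close to the threshold. It passed without DMSO 2 (0.84) and did not pass without DMSO 1 (0.39), Vorinostat 1 (0.51) or Vorinostat 2 (0.73). The second probe set, 1416619_at, read 2.27 and 2.59 in DMSO, near background, and 3.94 and 3.90 with vorinostat, just above the margin. Its measured rise of 1.49 (SE 0.12, adjusted p = 0.000802) passed in each of the 4 fits that leave out an array. Against the margin in DMSO the rise is at least 1.21-fold. Averaged over both probe sets, Vsir rose by 1.06 (adjusted p = 0.00191 by limma), 1 of them near background in DMSO. The sequences behind both are not listed as a RefSeq transcript of Vsir.

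Lgals9, which encodes the TIM-3 ligand galectin-9, read 5.68 on both DMSO arrays and 6.26 and 6.19 with vorinostat (1421217_a_at). The groups were well apart. It rose by 0.55 (SE 0.08, adjusted p = 0.00498) or 1.46-fold, and 13.5% of all genes had a larger upward change. Without Vorinostat 1 it did not pass (0.51, adjusted p = 0.0521).

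Cd276 encodes B7-H3, a B7 protein common on carcinoma cells. Its single probe set, 1417599_at, read 5.15 and 5.10 in DMSO and 5.41 and 5.45 with vorinostat, with no overlap and a small distance. The rise was 0.30 (SE 0.08, adjusted p = 0.0375) or 1.23-fold. It did not pass without DMSO 1, DMSO 2, Vorinostat 1 or Vorinostat 2, where the change lay between 0.27 and 0.33, and 23.2% of all genes had a larger upward change.

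Cd274, the gene of PD-L1, lay above the background margin on all 4 arrays and showed no difference that these arrays could resolve. The T cell markers Cd3e, Cd4 and Cd8a also lay above it, with DMSO means of 4.50, 5.09 and 5.07, while Cd3g and Cd2 were near background. A reading above the margin therefore does not by itself show the transcript, and the specificity of the Cd274 signal was not tested. Cd274 read 4.33 and 4.34 in DMSO and 4.29 and 4.53 with vorinostat (1419714_at). Vorinostat 1 lay below both DMSO arrays and Vorinostat 2 above them. The change was 0.07 (SE 0.11, adjusted p = 0.665), with a 95% interval from -0.20 to 0.35, so a 2-fold rise of this signal lies outside it. Without Vorinostat 2 the change was -0.05, and with the arrays scaled on reference genes it was 0.44 and passed (adjusted p = 0.0156). Pdcd1lg2, the gene of the second PD-1 ligand PD-L2, is separated from Cd274 on the chromosome by 1 annotated gene, which does not code for protein. It was near background on all 4 arrays, with 2.57 and 2.87 in DMSO and 2.98 and 3.02 with vorinostat (1450290_at). The vorinostat arrays lay higher without overlap, and the change of 0.28 (SE 0.12, adjusted p = 0.150) did not pass. It was 0.13 without DMSO 1 and 0.43 without DMSO 2, and passed in neither fit.

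**Figure D2:**
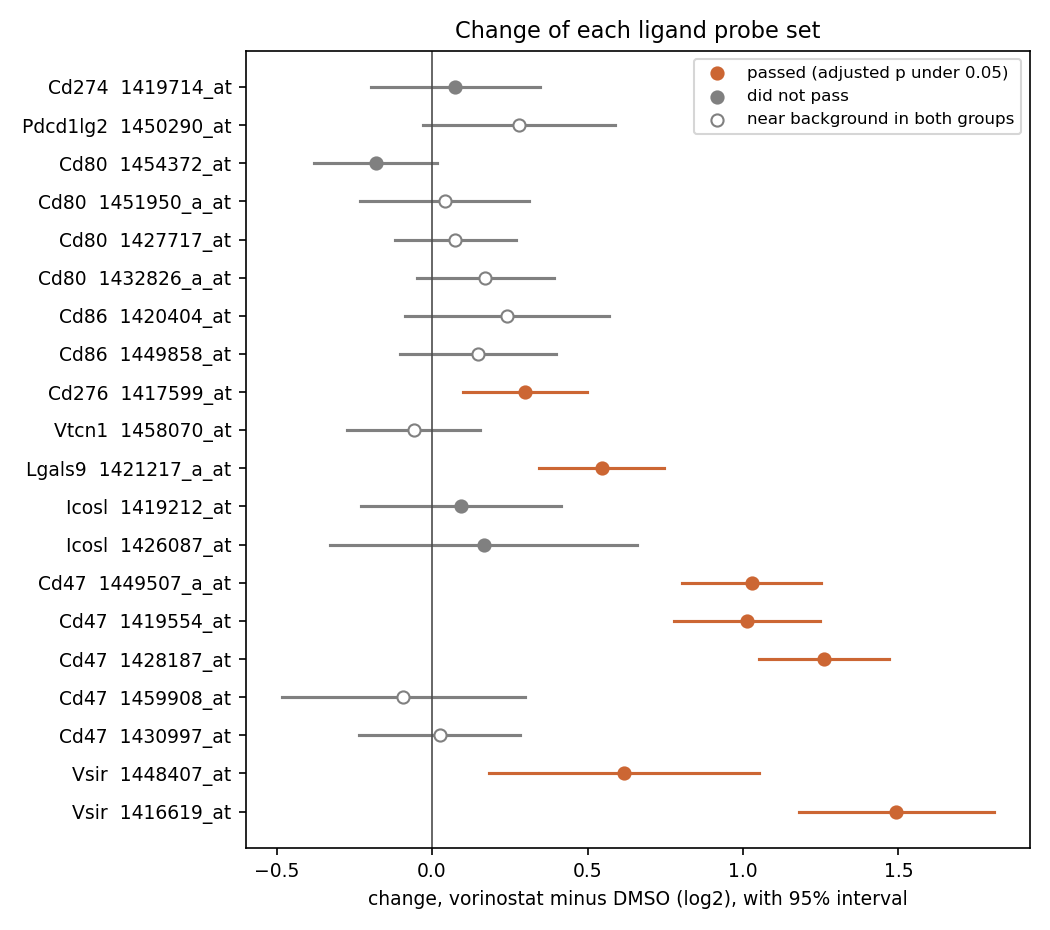
Change of each ligand probe set, vorinostat minus DMSO on the log2 scale (horizontal axis), with its 95% interval from limma; orange marks an adjusted p under 0.05 and open circles probe sets near background in both groups. The 3 bright Cd47 probe sets lie between 1.01 and 1.26, while the interval of Cd274 runs from -0.20 to 0.35 and includes 0.

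Cd80 and Cd86 encode the classical ligands of CD28 and CTLA-4, and no probe set of either passed. The brightest Cd80 probe set, 1454372_at, read 3.62 on both DMSO arrays and 3.41 and 3.47 with vorinostat. DMSO 1 alone was above the margin, and the 2 vorinostat arrays lay lower without overlap. The change was -0.18 (SE 0.08, adjusted p = 0.149), with an interval from -0.38 to 0.02. The other 3 Cd80 probe sets were near background in both groups, with changes of 0.04 (1451950_a_at), 0.07 (1427717_at) and 0.17 (1432826_a_at). Both Cd86 probe sets were near background on all arrays as well. Probe set 1420404_at read 3.09 and 3.35 in DMSO and 3.35 and 3.58 with vorinostat, a change of 0.24 (SE 0.13, adjusted p = 0.233) that ranged from 0.11 without DMSO 1 to 0.37 without DMSO 2. Probe set 1449858_at changed by 0.15 (SE 0.10, adjusted p = 0.335). A probe set near background gives no measure of whether a transcript changed below the margin.

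Icosl, the gene of the ICOS ligand, was above the margin on all arrays at 2 probe sets. Probe set 1419212_at read 3.95 and 4.28 in DMSO and 4.20 and 4.21 with vorinostat, a change of 0.09 (SE 0.13, adjusted p = 0.648). Probe set 1426087_at read 4.14 and 3.90 against 4.45 and 3.92, a change of 0.17 (SE 0.19, adjusted p = 0.587). In both, the 2 groups overlapped, and the intervals reached from -0.23 to 0.41 and from -0.33 to 0.66. Vtcn1, the gene of B7-H4, was near background on all arrays, with 2.66 and 2.75 in DMSO and 2.61 and 2.68 with vorinostat (1458070_at). Its change was -0.06 (SE 0.08, adjusted p = 0.664).

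The brightest probe set of Cd47 was also set against that of each of the other 9 genes on the same array. A constant added to a whole array cannot alter this difference, though a quantile normalization can. Because Cd47 had the largest change by the brightest probe set, the shift is positive against every other gene by that choice. Cd47 minus Cd274 was 4.58 and 4.45 in DMSO and 5.55 and 5.39 with vorinostat, a shift of 0.95 on the log2 scale. Only the shift has a meaning, because the 2 probe sets bind with different strength. The shift lay between 0.48 (Lgals9) and 1.21 (Cd80) for the genes other than Vsir, with no overlap between the groups. Against Vsir it was 0.41 and the arrays overlapped. An exact two-sided permutation test of 2 against 2 arrays cannot give a p below 0.333, so these shifts are a description and carry no call in either direction.

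Other genes of these pathways were taken from 7 lists, of which 59 of 67 genes were measured by a probe set with 1 symbol and the rest were not analysed here. Over all genes 20.9% rose and 18.9% fell, and the counts of each list stand beside those shares. Of 11 receptors and binding partners of the ligands, 1 rose and 0 fell. Above the margin on all 4 arrays were 5 of them, and 5 were near background in both groups, among them Pdcd1 (PD-1), Ctla4 and Havcr2 (TIM-3). The 1 that rose, Cd28 (0.41, SE 0.10, adjusted p = 0.0287), was itself near background on all 4 arrays, did not pass in any of the 4 fits without an array, and had 0.04 at a second probe set. Thbs1, which encodes thrombospondin-1, a secreted ligand of CD47, changed by 0.17 (SE 0.15, adjusted p = 0.463), and Sirpa, the receptor of CD47, by 0.10 (SE 0.12, adjusted p = 0.593).

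Interferon-gamma signalling is the best known inducer of PD-L1, and 7 of its 10 measured genes rose while 2 fell, with a median change of 0.46. Of all genes 20.9% rose and 18.9% fell, so the count of falls is near the share over all genes. All 10 were above the margin. The kinase Jak1 rose from 7.83 ± 0.04 to 8.63 ± 0.05 (SD, n = 2), by 0.81 (SE 0.08, adjusted p = 0.00142). The transcription factor Stat3 rose by 1.01 (SE 0.08, adjusted p = 0.000792), and by 1.20 at a second bright probe set, whereas its 2 dim ones had 0.20 and -0.11. The receptor chains Ifngr1 (0.39) and Ifngr2 (0.51), the kinase Jak2 (0.43), the factor Irf1 (0.61) and the feedback inhibitor Socs3 (0.49) rose too. The phosphatase Ptpn2, a brake on JAK and STAT proteins, fell by 0.87 on the log2 scale (SE 0.09, adjusted p = 0.00179) and the inhibitor Socs1 fell by 0.32 (SE 0.08, adjusted p = 0.0265), which became 0.044 with the arrays scaled on reference genes. Of the other 3 Ptpn2 probe sets, 1 fell by 0.84, 1 that was near background on all arrays rose by 0.28, and 1 had 0.30 and did not pass. Fewer genes of the list passed with any 1 array left out, and Socs1 did not. The median change of the list then lay between 0.38 and 0.50. Beside these changes stands that of Cd274 itself, 0.07.

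Of 12 measured genes that act on PD-L1 or CD47 as proteins, 3 rose and 1 fell, with 20.9% and 18.9% over all genes, so the number of rises is near the share of all genes. The same counts held in each fit without an array, while 5 rose with an intensity trend in the variance and 10 on the reference genes. Cmtm6, which keeps PD-L1 at the cell surface, rose by 0.77 (SE 0.08, adjusted p = 0.00152). Hip1r, which directs PD-L1 to lysosomes, rose by 1.22 (SE 0.13, adjusted p = 0.00157), and by 0.90 and 0.53 at 2 other probe sets. Both palmitoyltransferases on the list moved, in opposite directions: Zdhhc9 rose by 1.07 (SE 0.08, adjusted p = 0.000575), and Zdhhc3 fell by 1.24 (SE 0.08, adjusted p = 0.000472) and also at its 3 other probe sets. A second Zdhhc9 probe set was near background and did not pass. Qpctl, the enzyme that modifies the end of CD47 which SIRP-alpha recognises, read 5.97 and 6.09 in DMSO and 6.51 and 6.26 with vorinostat. The groups did not overlap, and the change of 0.35 (SE 0.11, adjusted p = 0.0699) did not pass.

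Of 8 further ligands of T and NK cell receptors, 2 rose and 3 fell, where 20.9% of all genes rose and 18.9% fell. Nectin2 went from 5.10 ± 0.20 to 7.42 ± 0.23 (SD, n = 2), a rise of 2.32 (SE 0.15, adjusted p = 0.000441), against 1.23 at its second probe set. Ceacam1, an adhesion molecule and ligand of TIM-3, rose by 0.55 (SE 0.10, adjusted p = 0.0129). Of its 7 other probe sets 4 rose and 3 did not pass. The call of the brightest was lost without DMSO 1 (0.46), Vorinostat 1 (0.48) or Vorinostat 2 (0.62). Nectin3, an adhesion partner of the nectins, fell by 0.90 on the log2 scale (SE 0.08, adjusted p = 0.00109). Of its other 5 probe sets 3 fell too and 2 did not pass. Cd24a, a mucin-like surface glycoprotein, fell by 0.77 (SE 0.09, adjusted p = 0.00223) and at its 2 other probe sets. The remaining gene that fell was Pvr, by 0.62 (SE 0.11, adjusted p = 0.0112) at the brightest of its 7 probe sets. Its other probe sets are not described here.

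In each of the remaining 3 lists 0 genes rose and 1 fell, where 20.9% of all genes rose and 18.9% fell. Of 5 butyrophilins and other B7-like genes, Btn1a1 fell by 0.60 (SE 0.16, adjusted p = 0.0389). Its change was -0.82 without Vorinostat 2, which passed, and -0.37 without Vorinostat 1, which did not, and it did not pass without DMSO 1 or DMSO 2 either. The 2 other Btn1a1 probe sets were near background, with -0.15 and -0.02. Of 6 genes of TNF superfamily co-stimulation, Tnfsf9, the ligand of 4-1BB, fell by 0.44 (SE 0.08, adjusted p = 0.00927), which did not pass without DMSO 1, DMSO 2, Vorinostat 1 or Vorinostat 2. Of 7 galectins other than Lgals9, the 1 that fell was Lgals2, with -0.33 (SE 0.08, adjusted p = 0.0322) and 0.036 with the arrays scaled on reference genes, whose second, dimmer probe set rose by 0.40 and whose fall was lost in all 4 fits without an array. Lgals3 changed by 0.24 (SE 0.08, adjusted p = 0.0692) and Lgals1 by -0.28 (SE 0.08, adjusted p = 0.0510), where Lgals9 rose by 0.55. Of the 7 galectins, 2 lay higher and 4 lower with vorinostat without overlap, where 37.3% of all genes lay higher and 31.6% lower. The medians of these 3 lists were 0.06, 0.04 and -0.07.

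**Figure D3:**
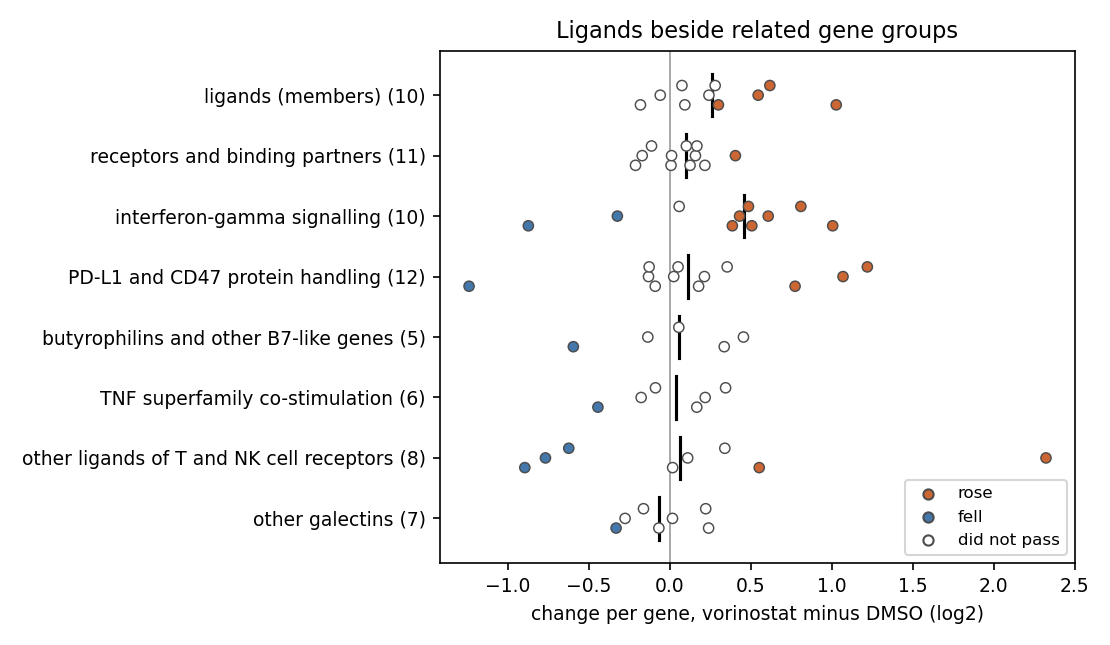
Change per gene, vorinostat minus DMSO on the log2 scale (horizontal axis), for the 10 ligands and the 7 related lists, with the number of measured genes in brackets and a black bar at each median. Orange and blue points passed upwards and downwards; the medians of the ligands and of interferon-gamma signalling, 0.26 and 0.46, lie furthest to the right.

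Markers of epithelium and of other cell types were read on the same arrays. Over all genes 20.9% rose and 18.9% fell, and 12402 of 18193 lay above the margin on all 4 arrays. All 8 epithelial markers were above the margin, among them Krt8, Krt18, Epcam and Cdh1. Of the 8, 2 rose, Krt19 (1.10) and Cldn4 (0.77), and 1 fell, Krt8 (-1.05). Of 3 measured prostate markers, Hoxb13 (rise of 0.54) and Fkbp5 were above it and the androgen-driven Pbsn was near background. Of 10 markers of myeloid and dendritic cells, 0 rose and 1 fell, 5 were above the margin on all 4 arrays (Itgax, Csf1r, Cd14, Flt3 and Fcgr1) and 3 were near background in both groups (the leukocyte marker Ptprc, the integrin Itgam and Adgre1). Their mean level lay at 3.99 and 4.14 in DMSO and 3.89 and 3.92 with vorinostat. Cd14 fell by 1.67 on the log2 scale (SE 0.18, adjusted p = 0.00173). Of 5 T cell markers 1 rose, Cd3e, by 0.43 (SE 0.09, adjusted p = 0.0158), with Cd3e, Cd4 and Cd8a above the margin on all 4 arrays and Cd3g and Cd2 near background, and it did not pass without DMSO 1, Vorinostat 1 or Vorinostat 2. Their mean level was 3.72 and 3.94 in DMSO and 4.09 and 4.11 with vorinostat. B cell markers and endothelial markers had 0 that rose or fell of 3 and 4, and their mean levels ranged from 3.93 to 4.04 and from 3.45 to 3.57 over the arrays. Of 5 fibroblast markers 2 rose (Pdgfra by 1.54 and Dcn by 1.26) and 1 fell (Col3a1, with a change of -0.89). Col1a1 (-0.31) and Lum (-0.15) did not pass, and the median change of the 5 was -0.15. The mean level of the 5 was 7.06 and 7.15 in DMSO and 7.25 and 7.55 with vorinostat. The labels name 1 cell line in culture. The source of the signal at markers of other cell types, and any part of such cells in the ligand values, was not tested.

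The number of ligands called depended in part on the scaling of the arrays, and among the scalings moved furthest with 7 reference genes. With each array scaled on 7 reference genes, 9 of 10 ligand genes rose, all but Cd80, and so did 62.3% of all genes. Of the ligand probe sets 18 rose, against 61% of all probe sets. Btn1a1 and Tnfsf9 did not pass there. That scaling raised every change by 0.37, of which Gusb (-1.42) and Polr2a (-0.75) carry most. With those 2 left out, an alternative chosen after their changes were seen, the shift was 0.08, the same 4 ligands rose (Cd276, Lgals9, Cd47 and Vsir), and so did 25.9% of all genes. At 7 ligand probe sets the rise passed, against 21.4% of all probe sets.

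**Figure D4:**
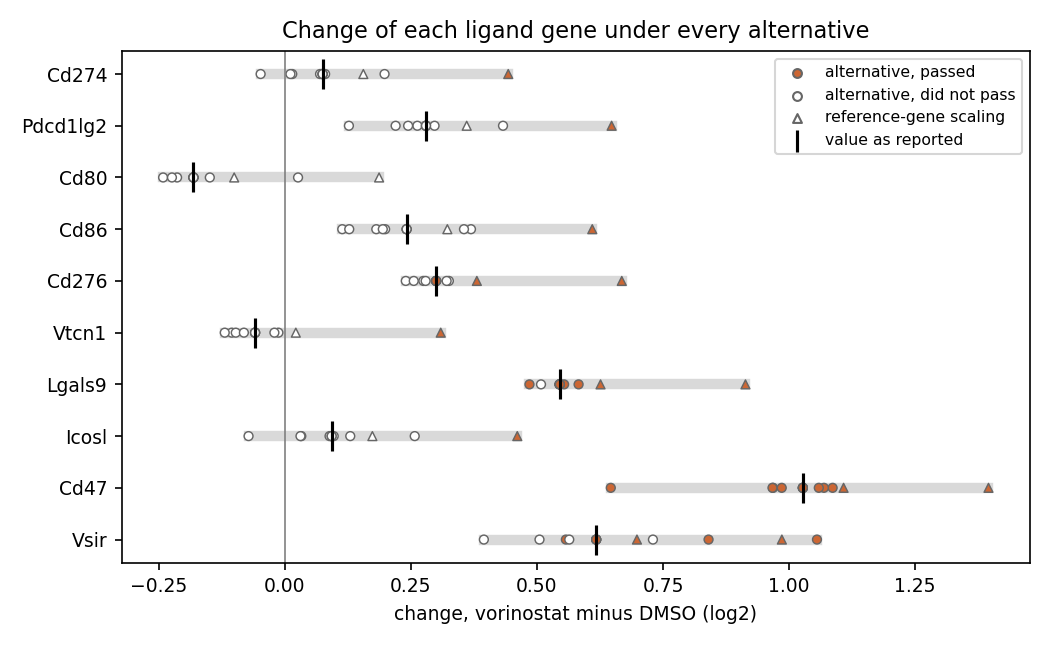
Change of each ligand gene on the log2 scale (horizontal axis) as reported (black bar) and under every alternative (points; triangles are the reference-gene scalings, orange passed, open did not). Cd47 stays between 0.65 and 1.40 and passed throughout, Vsir and Cd276 pass under some alternatives, and Cd274 ranges from -0.05 to 0.44 and passed under 1 of them.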

How the data were processed

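RNA of PPS-ICBR cells kept with DMSO or vorinostat was hybridised to 4 Affymetrix arrays. The values are the authors' deposited log2 expression values, 1 per probe set and array. Per the submitters' processing notes, RMA and the Transcriptome Analysis Console were used; versions, genome build and filters are not given in the sources used here. RMA gives all arrays nearly the same distribution, which hides a shift common to every transcript. Array medians lay between 4.19 and 4.28. Precision is limited by having 4 arrays.

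Of 45101 probe sets, 64 controls were left out. The platform annotation gave 1 symbol to 34945, several to 932 and none used here to 9160. All 20 ligand probe sets matched a RefSeq gene (GRCm38.p6), used for names, transcript listings and neighbours only. The groups were fitted in R 4.3.3 with limma 3.58.1 (lmFit and eBayes, two-sided, 2 residual and 3.26 prior degrees of freedom, no filter). The code was also run on simulated data with few changed probe sets, which does not measure error rates in these data. DMSO arrays differed over 2-fold at 16 probe sets and vorinostat arrays at 9. No scan date or slide was used. The background margin, 1 log2 unit above the brightest of 3 TrpnX controls, gives lower bounds.

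The ligands and lists were chosen with earlier results of these data known. Text names all ligands and, per list, the 2 largest rises and falls past the threshold, or the smallest p where fewer than 2 passed. Genes named beyond that (Thbs1, Sirpa, Qpctl, Cmtm6, Pvr, Lgals1, Lgals3 and the others of the interferon list) were picked after their values were seen. Alternatives were a replicate block, leaving out each array, 3 other scalings and 1 added one, 2 variance models, a filter on level, and averaged probe sets. Reference genes were 7.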

Additional observations from a re-analysis of the deposited data

How the results depend on the processing

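Cd47 rose under every alternative run, between 0.65 (mean of its probe sets) and 1.40 (reference-gene scaling), and Lgals9 in all but the fit without Vorinostat 1. The count of ligand genes that rose, 4, ranged from 1 to 3 when 1 array was left out, was 2 with the replicate number as a block, 2 after a further quantile normalization and 9 on the reference genes. The count of ligand probe sets that rose, 7, ranged from 4 to 6 without 1 array, was 5 with the block and was 18 on the reference genes. Replicate numbers share no stated origin, and deviations of same-numbered arrays had r = -0.060 over all probe sets. Under the block Cd276 and Vsir did not pass. Cd276 also did not pass with arrays centred on the median (0.24), a further quantile normalization (0.26) or an intensity trend (0.30), and Vsir did not pass with the further quantile normalization (0.56), while with averaged probe sets it rose by 1.06, above Cd47. No ligand fell under any alternative. These changes turned their sign. On the reference genes Cd80 was 0.187, Vtcn1 0.309 (passed), Cd47 probe set 1459908_at 0.276, Socs1 0.044 and Lgals2 0.036. Without Gusb and Polr2a among them Vtcn1 was 0.022. With averaged probe sets Cd80 was 0.026 and Lgals2 0.034. Centred on the median, Cd80 probe set 1451950_a_at was -0.020 and Cd47 probe set 1430997_at -0.036, and the latter was -0.0040 after a further quantile normalization. Over the fits without 1 array, Pdcd1lg2 ranged from 0.127 to 0.433, Cd86 from 0.114 to 0.369, Cd274 from -0.048 to 0.198, Icosl from -0.072 to 0.258, Cd80 probe set 1451950_a_at from -0.064 to 0.144, Icosl probe set 1426087_at from -0.098 to 0.431, and Cd47 probe sets 1459908_at from -0.266 to 0.082 and 1430997_at from -0.081 to 0.130. Over all genes, 3806 rose and 3444 fell, against 11340 and 2048 on the reference genes, where the median gene moved from 0.03 to 0.40; 51.3% of called probe sets were higher as deposited, 43.8% centred on the median and 87.5% under that scaling. Leaving out 1 array gave 2094 to 2381 genes that rose and 2046 to 2326 that fell. The cause was not tested, beyond the constant shift that a scaling adds and the fewer arrays. A lone array in a group is assumed to vary like the other group. Signal near background limits Pdcd1lg2, Cd80, Cd86 and Vtcn1.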
